A study of Mus musculus with 9 samples.

Results

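The mammalian circadian clock is a feedback loop of transcription factors, and 10 of its genes were examined here in C2C12 myotubes: the period genes Per1, Per2 and Per3, the cryptochromes Cry1 and Cry2, the activators Clock and Bmal1, the REV-ERB receptors Nr1d1 and Nr1d2, and the output factor Dbp. They were taken by gene symbol from an expression table of 10716 genes, and all 10 were listed. C2C12 is a mouse myoblast line whose cells fuse into multinucleated myotubes. Myotubes were treated for 24 h with dexamethasone (50 µM) together with THSG (10 µM), with dexamethasone (50 µM) alone, or with vehicle, and RNA of 3 libraries per group was sequenced. Dexamethasone is a synthetic glucocorticoid used to model muscle atrophy in cultured myotubes. The abbreviation THSG is not spelled out in the labels; it commonly denotes tetrahydroxystilbene glucoside, a plant stilbene. THSG was never given without dexamethasone, so its effect on otherwise untreated myotubes was not measured. All groups are the same cell line, and whether the replicates were grown as separate cultures is not stated, so p-values measure only the spread between these libraries.

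CLOCK and BMAL1 bind E-boxes in DNA and switch on the period and cryptochrome genes, whose proteins then inhibit CLOCK and BMAL1. A second loop is closed by the REV-ERB receptors, which repress Bmal1, and by ROR receptors, which activate it. DBP and related factors activate genes through D-boxes, where NFIL3 competes as a repressor. Skeletal muscle has such a clock, glucocorticoids are among the signals that set clocks in peripheral tissues, and Per1 is a well-known direct target of the glucocorticoid receptor. Each library here comes from 1 time after treatment, so the values are levels at 24 h and hold no information on rhythm or phase.

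The deposited values were taken to be FPKM (fragments per transcript length and library size), so that levels can be compared between genes; no label or header states the unit. Library sums were 400218 to 422379 FPKM, and without sequencing depths their counting error is unknown. Every value in the table lay above 1 FPKM, and all 10 clock genes passed that filter in all 9 libraries. Dexamethasone replicate 3 stood apart on the second principal component, which carried 7.73% of the variance (-14.6, with the other 8 libraries between -4.49 and 7.29), and mitochondrial genes made up 14% of its sum, against 10.5% to 12% elsewhere. Without it the log2 fold changes over vehicle were 1.58 for Per1, -0.93 for Per3, -0.79 for Dbp and -0.30 for Cry1, and of these the Cry1 call was lost. All 12 myotube markers searched (among them Myog, Acta1, Ckm and Myh3) were listed, with summed levels of 7519 to 7693 FPKM with dexamethasone plus THSG, 7118 to 7656 with dexamethasone and 6174 to 6673 with vehicle. Of 7 markers of dividing cells, 5 were listed and all 5 fell with dexamethasone, with sums of 16 to 18.4, 14 to 17.8 and 42.7 to 48.6 FPKM in the same order of groups. All 5 markers of undifferentiated myoblasts or reserve cells (Pax7, Myf5, Cd34, Spry1 and Notch3) were listed, and their sums were 70.8 to 74.1, 69.1 to 70.9 and 99.7 to 101 FPKM. Of 6 fibroblast markers, 3 were listed (Pdgfra, Dcn and Col1a1), with sums of 69.1 to 73, 69.1 to 72.9 and 161 to 175 FPKM, and none of 5 adipocyte markers was listed. Single markers went both ways in both comparisons with vehicle: of the myoblast and reserve cell markers 3 were lower (Pax7, Cd34 and Notch3) and Myf5 was higher (log2 fold change 1.05 with dexamethasone over vehicle), and of the fibroblast markers Dcn and Col1a1 were lower and Pdgfra was higher (1.31). Of the 12 myotube markers, 7 were higher and 0 lower in both comparisons with vehicle. With dexamethasone over vehicle Ckm was higher (0.74), while Myog, Acta1 (0.04) and Myh3 (0.09) were not called. These marker values accompany every dexamethasone result below, and their part in the clock gene values was not tested. In bulk RNA, fewer cells of a type and less RNA per cell cannot be told apart.

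The comparison of dexamethasone with vehicle asks how the glucocorticoid altered the clock genes. Per1 rose nearly to 3 times its vehicle level, Per3 and Dbp fell to about 50% and 55% of theirs, and Cry1 fell by a smaller amount. The other 6 members, among them both activators and both REV-ERB receptors, did not pass the test. Of the 10 clock genes, 1 was higher and 3 were lower at a limma adjusted p under 0.05. Over all 10716 genes 33.6% passed, 12.7% higher and 20.9% lower, so 4 of 10 is close to the share among all genes. The median log2 fold change of the 10 was -0.08, against -0.05 over all genes. The share of called genes that were higher was 37.8% with values as deposited, 49.6% after scaling by median ratios and 50.5% after quantile normalization. With median-ratio scaling 2 clock genes were higher and 3 lower, since Clock then passed, and 3505 of all 10716 genes were called.

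Per1 (ENSMUSG00000020893) encodes a repressor of CLOCK and BMAL1. It stood at 23.6, 24.4 and 21.1 FPKM in the dexamethasone libraries and at 7.81, 7.55 and 8.45 FPKM in the vehicle libraries. Every dexamethasone library lay far above every vehicle library. The means were 23.0 ± 1.7 and 7.94 ± 0.46 FPKM (SD, n = 3 each), and the log2 fold change was 1.52 (SE 0.070, 95% interval 1.37 to 1.68, limma adjusted p = 1.90e-08), or 2.87-fold. It was the 56th largest rise of the 10716 genes. Per1 was the member with the largest change, and its call held under all 20 alternative settings, with log2 fold changes between 1.42 and 1.66.

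Per3 (ENSMUSG00000028957), another period gene, moved the other way. It stood at 2.55, 2.80 and 2.32 FPKM with dexamethasone and at 5.19, 5.01 and 5.39 FPKM with vehicle, and the groups did not overlap. The means were 2.56 ± 0.24 and 5.19 ± 0.19 FPKM, a log2 fold change of -1.0 (SE 0.135, 95% interval -1.29 to -0.70, adjusted p = 0.000141). That was the 182nd largest fall in the table. Per2 (ENSMUSG00000055866), the remaining period gene, was at 3.13, 2.83 and 2.61 FPKM with dexamethasone and 3.34, 3.18 and 2.84 FPKM with vehicle. The Per2 groups overlapped, and its log2 fold change of -0.12 had an interval from -0.39 to 0.14 (adjusted p = 0.468).

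The makeup of the period gene sum differed between the groups. The summed level was 28.4 ± 2.1 FPKM with dexamethasone and 16.3 ± 0.47 FPKM with vehicle. Per1 made up 81.0 ± 0.31% of that sum with dexamethasone and 48.8 ± 1.6% with vehicle, while Per3 made up 8.99 ± 0.32% and 32.0 ± 0.31%. The share of Per2, which was not called, was 10.1 ± 0.62% with dexamethasone and 19.2 ± 1.9% with vehicle. The rise of Per1 lowers the shares of the other period genes, so a share overstates the fall of Per3 itself. The ratio of Per1 to Per3 was 9.25, 8.69 and 9.11 in the dexamethasone libraries and 1.51, 1.51 and 1.57 in the vehicle libraries. Both ratio groups were tight. Per1 was higher and Per3 lower in every dexamethasone library than in every vehicle library, so the ratios could not overlap. The ratio thus adds no separate result. With 3 libraries against 3, an exact two-sided permutation test of such a ratio cannot go below p = 0.1.

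**Figure D1:**
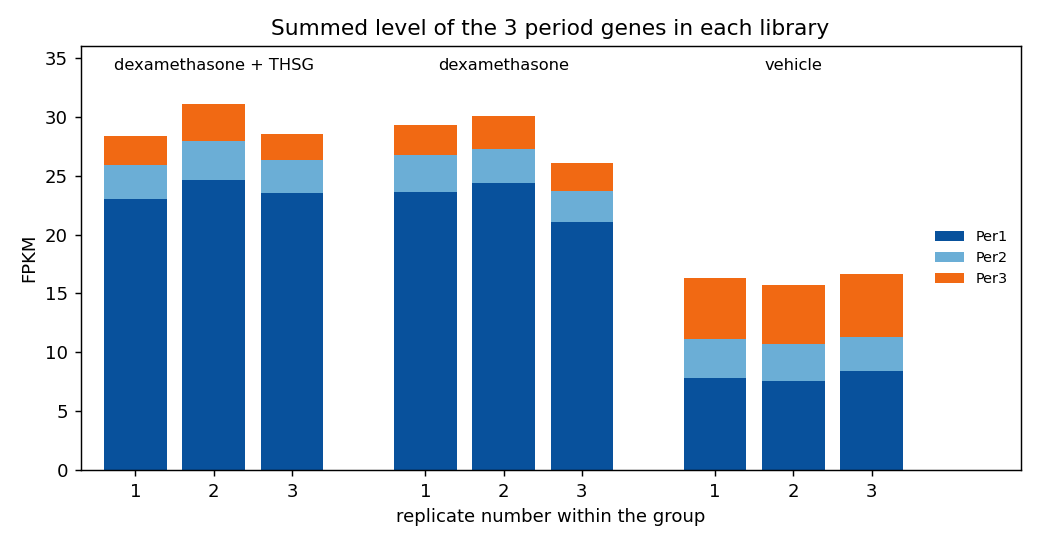
Stacked bars give the FPKM of Per1, Per2 and Per3 in each of the 9 libraries, with dexamethasone plus THSG on the left, dexamethasone in the middle and vehicle on the right. Per1 fills about 81% of each bar in the groups with dexamethasone and 47.8% to 50.7% in the vehicle libraries, while the Per3 segment is larger in every vehicle library.

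Cry1 (ENSMUSG00000020038), a partner of the period proteins and a strong repressor of the loop, was at 4.64, 5.17 and 4.26 FPKM with dexamethasone and 5.58, 5.72 and 7 FPKM with vehicle. The groups did not overlap, and vehicle replicate 3 stood above the other 2 vehicle libraries. Cry1 fell by 0.37 on the log2 scale (SE 0.110, 95% interval -0.61 to -0.13, adjusted p = 0.0229). The Cry1 call was lost in 6 of 20 alternatives with the direction kept, and over all 20 the adjusted p ranged from 0.0179 to 0.0929. The log2 fold change was -0.27 without vehicle replicate 3 (adjusted p = 0.0929), -0.30 without dexamethasone replicate 3 (0.0819) and -0.36, nearly the same, without dexamethasone replicate 1 (0.0571). With all libraries kept it was -0.29 after quantile normalization (0.0673) and -0.30 with GC content and length corrected for (0.058; 0.0793 with the replicate block as well). Cry2 (ENSMUSG00000068742), the other cryptochrome, was at 5.17, 4.96 and 4.71 FPKM with dexamethasone and at 5.79, 5.60 and 4.6 FPKM with vehicle. The Cry2 groups overlapped (log2 fold change -0.10, 95% interval -0.33 to 0.13, adjusted p = 0.498).

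Dbp (ENSMUSG00000059824), a PAR bZIP activator and a classic output of the loop, was at 2.31, 3.36 and 2.38 FPKM with dexamethasone and 5.35, 4.82 and 4.58 FPKM with vehicle. Dexamethasone replicate 2 was the highest of its group and still below every vehicle library. The means were 2.68 ± 0.59 and 4.92 ± 0.39 FPKM, a log2 fold change of -0.87 (SE 0.158, 95% interval -1.21 to -0.52, adjusted p = 0.00129). The Dbp call held in each of the 19 alternatives that tested it, between -1.03 and -0.66. In the annotation 539 bases of Dbp exons overlap Sphk2 on the opposite strand, and the strand setting of the counting is not stated. Sphk2 was at 8.93 FPKM with dexamethasone and 9.49 FPKM with vehicle (log2 fold change -0.09, adjusted p = 0.577).

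The activators and REV-ERB receptors stood at nearly equal levels in both groups. Clock (ENSMUSG00000029238) was at 16.2, 17.5 and 17.0 FPKM with dexamethasone and at 15.0, 15.5 and 15.5 FPKM with vehicle. Those groups did not overlap, yet the log2 fold change was 0.14 (95% interval 0.02 to 0.26) with an adjusted p = 0.0712. Clock passed at 0.19 under median-ratio scaling and at 0.18 under quantile normalization, and its value was 0.06 (adjusted p = 0.418) with GC content and length corrected for. Bmal1 (ENSMUSG00000055116), the partner of CLOCK, was at 6.25, 6.02 and 7.27 FPKM with dexamethasone and 7.14, 6.72 and 5.93 FPKM with vehicle. Its groups overlapped throughout (log2 fold change -0.02, 95% interval -0.29 to 0.25).

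Nr1d1 (ENSMUSG00000020889), which encodes REV-ERB alpha, was at 21.9, 20 and 19.3 FPKM with dexamethasone and 20.9, 20.5 and 20.3 FPKM with vehicle. The Nr1d1 difference was -0.01 on the log2 scale (95% interval -0.14 to 0.12). Nr1d2 (ENSMUSG00000021775), which encodes REV-ERB beta, was at 14.6, 16.3 and 14.7 FPKM with dexamethasone and 16.7, 15.1 and 15.4 FPKM with vehicle (log2 fold change -0.05, 95% interval -0.20 to 0.09). Both genes overlapped between the groups, and neither interval reaches the size of the Per1 or Per3 change. Nr1d1 shares 263 exonic bases with Thra, a thyroid hormone receptor gene on the opposite strand, at 23.1 FPKM with dexamethasone and 20.4 FPKM with vehicle (log2 fold change 0.18, adjusted p = 0.156). For 5 of the 10 clock genes the dexamethasone and vehicle ranges were separate, against 45.9% of all genes.

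**Figure D2:**
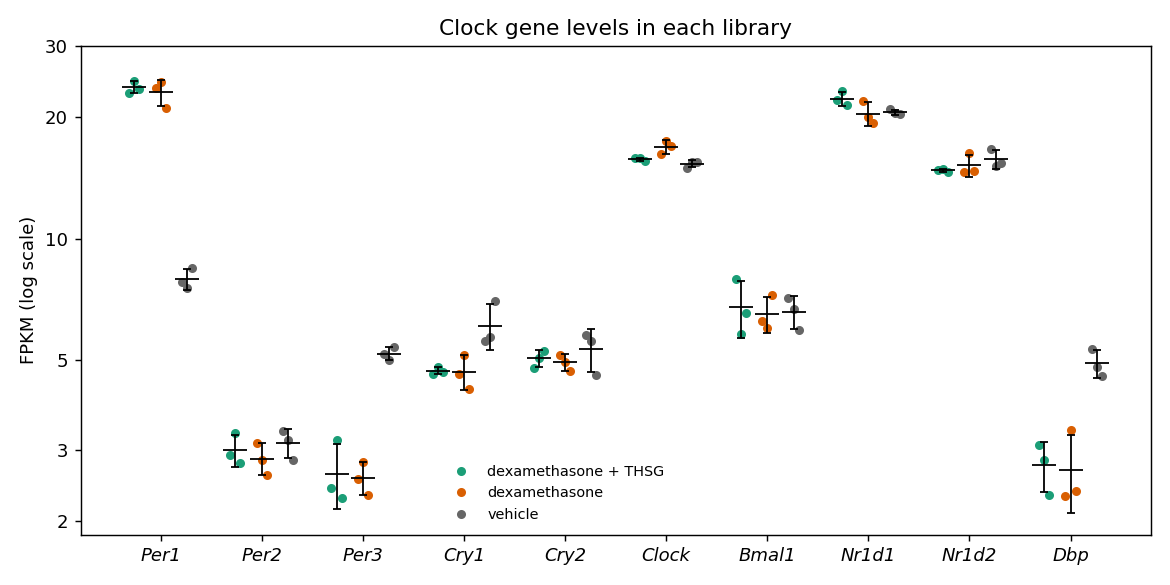
Points show the FPKM (log scale) of the 10 clock genes in each library, with dexamethasone plus THSG left of dexamethasone and vehicle on the right of each trio; horizontal marks are means and bars are SD of 3 libraries. Per1 sits above 21 FPKM in the 6 libraries with dexamethasone and near 8 in the vehicle libraries, Per3 and Dbp sit lower in those 6, and the remaining genes differ little.

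Upstream sequence was examined for the genes that moved. Promoter windows from RefSeq (GRCm38.p6, 250 bases before to 50 after each start) were found for 9 of the 10 members, with 13 windows in all; none was found for Per2. The following stretches are the 250 bases before the start of the called genes with a match, 5′ to 3′ on the strand of the gene, with the matched motifs in capitals.
Per1, first start, chr11:69098699-69098948, plus strand: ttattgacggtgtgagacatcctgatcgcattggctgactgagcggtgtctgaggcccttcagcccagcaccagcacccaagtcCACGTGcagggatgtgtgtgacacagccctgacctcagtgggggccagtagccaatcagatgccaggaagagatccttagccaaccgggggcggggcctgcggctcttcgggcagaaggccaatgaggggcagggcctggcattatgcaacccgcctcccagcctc
Per3, chr4:151044666-151044915, minus strand: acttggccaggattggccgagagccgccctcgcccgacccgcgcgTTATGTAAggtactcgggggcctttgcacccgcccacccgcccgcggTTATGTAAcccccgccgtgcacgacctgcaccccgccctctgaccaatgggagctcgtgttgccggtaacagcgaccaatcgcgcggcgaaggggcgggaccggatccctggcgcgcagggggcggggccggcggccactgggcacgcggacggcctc
Cry1, chr10:85185055-85185304, minus strand: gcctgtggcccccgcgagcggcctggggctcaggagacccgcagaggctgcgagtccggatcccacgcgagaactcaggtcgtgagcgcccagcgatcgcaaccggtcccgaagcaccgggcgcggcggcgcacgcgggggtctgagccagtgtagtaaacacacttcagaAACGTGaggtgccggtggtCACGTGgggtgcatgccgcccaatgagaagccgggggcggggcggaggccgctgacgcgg
In the Per1 stretch the capitals mark an E-box (CACGTG) whose first base is at position -166 from the start. The Per3 stretch holds 2 D-boxes (TTATGTAA) at -205 and -158, on the strand shown. The Cry1 stretch holds an E-box at -60 and, at -79, the variant CACGTT on the opposite strand.

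The matched letters were uncommon among promoter windows in general. Those shares are per window, while members were counted per gene and some had several windows, so the counts and shares are not directly comparable. Over all 32851 windows of 300 bases, searched on both strands, 7.15% held CACGTG, 4.68% held CACGTT and 0.938% held TTATGTAA. Among the members, Per1 and Cry1 held the E-box, Cry1, Cry2 and Nr1d1 the variant, and Per3 the D-box. The letters TAGGTCA, found at ROR and REV-ERB elements, were in 2.61% of windows. Among the members, only the window of the second Bmal1 start held them. The letters TGACGTCA of the cAMP response element (1.79% of windows) and the palindromic glucocorticoid response element (0.475%) were in no window of a member. Dbp, Clock and Nr1d2 held none of the 6 motifs in these windows. The E-box stood in the window of the first Per1 start and not in that of the second. A match is a description of letters and not a bound site, and the part of these motifs in the expression values was not tested.

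Setting dexamethasone plus THSG against dexamethasone alone asks whether THSG altered the clock genes in glucocorticoid-treated myotubes. None of the 10 passed the limma test at an adjusted p under 0.05, and none had an unadjusted p under 0.05. The test called 0% of the 10716 genes, and 7.25% had an unadjusted p under 0.05. Per1 was at 23.0, 24.6 and 23.5 FPKM with THSG and 23.6, 24.4 and 21.1 FPKM without (log2 fold change 0.05, 95% interval -0.11 to 0.20). Per3 was at 2.42, 3.17 and 2.28 FPKM with THSG and 2.55, 2.80 and 2.32 FPKM without (0.03, from -0.27 to 0.32). Dbp was at 3.09, 2.84 and 2.32 FPKM with THSG and 2.31, 3.36 and 2.38 FPKM without (0.04, from -0.30 to 0.39). For these genes the libraries of the groups were interleaved.

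The log2 fold changes of the 10 genes for THSG lay between -0.10 and 0.12, with a median of 0.04 against 0.016 over all genes. Clock was the 1 member whose groups did not overlap, where 13.3% of all genes showed this, at 15.8, 15.8 and 15.6 FPKM with THSG and 16.2, 17.5 and 17.0 FPKM without (log2 fold change -0.10, 95% interval -0.22 to 0.02, adjusted p = 0.721). Nr1d1 had the largest positive value, 0.12 (from -0.01 to 0.25, adjusted p = 0.698). Cry1 and Cry2 had 0.01 (from -0.23 to 0.25) and 0.03 (from -0.20 to 0.26). The widest interval, that of Dbp, holds differences from -0.30 to 0.39 on the log2 scale, so a missed threshold does not show that the groups were alike.

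The comparison of dexamethasone plus THSG with vehicle asks where the clock genes stood under the combined treatment, and it shares the vehicle libraries with the comparison of dexamethasone alone. Per1 was higher and Per3, Dbp and Cry1 were lower, so 1 and 3 of the 10 were called; over all genes 29.1% passed, 12.1% higher and 17% lower. Per1 averaged 23.7 ± 0.82 FPKM with the combination and 7.94 ± 0.46 FPKM with vehicle (log2 fold change 1.57, SE 0.070, adjusted p = 1.47e-08). Per3 averaged 2.62 ± 0.48 and 5.19 ± 0.19 FPKM (-0.97, SE 0.135, adjusted p = 0.000186), and Dbp 2.75 ± 0.39 and 4.92 ± 0.39 FPKM (-0.82, SE 0.158, adjusted p = 0.002). In 7 of the 10 genes the groups did not overlap, against 43.1% of all genes.

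Cry1 averaged 4.71 ± 0.096 FPKM with the combination and 6.10 ± 0.78 FPKM with vehicle (log2 fold change -0.36, adjusted p = 0.0294). This call too was lost in 6 of 20 alternatives, with adjusted p from 0.0241 to 0.118 over all 20. Without vehicle replicate 3 the log2 fold change was -0.26 (adjusted p = 0.118). Without replicates 1, 2 and 3 of the combined treatment it stayed at -0.35, -0.37 and -0.35 and missed the threshold (adjusted p = 0.073, 0.0601 and 0.0717). With all libraries kept it was -0.30 after quantile normalization (0.068) and -0.32 with the block and the GC and length correction together (0.0667). Nr1d1, at 22.2 ± 0.93 and 20.6 ± 0.29 FPKM, did not pass (0.11, adjusted p = 0.205) unless GC content and length were corrected for (0.18). Its opposite-strand neighbour Thra was at 26.3 FPKM with the combination and 20.4 FPKM with vehicle (log2 fold change 0.36, adjusted p = 0.011), and the part of those reads in the Nr1d1 value was not tested. Clock (0.04), Bmal1 (0.03), Per2 (-0.06), Cry2 (-0.07) and Nr1d2 (-0.09) did not pass.

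**Figure D3:**
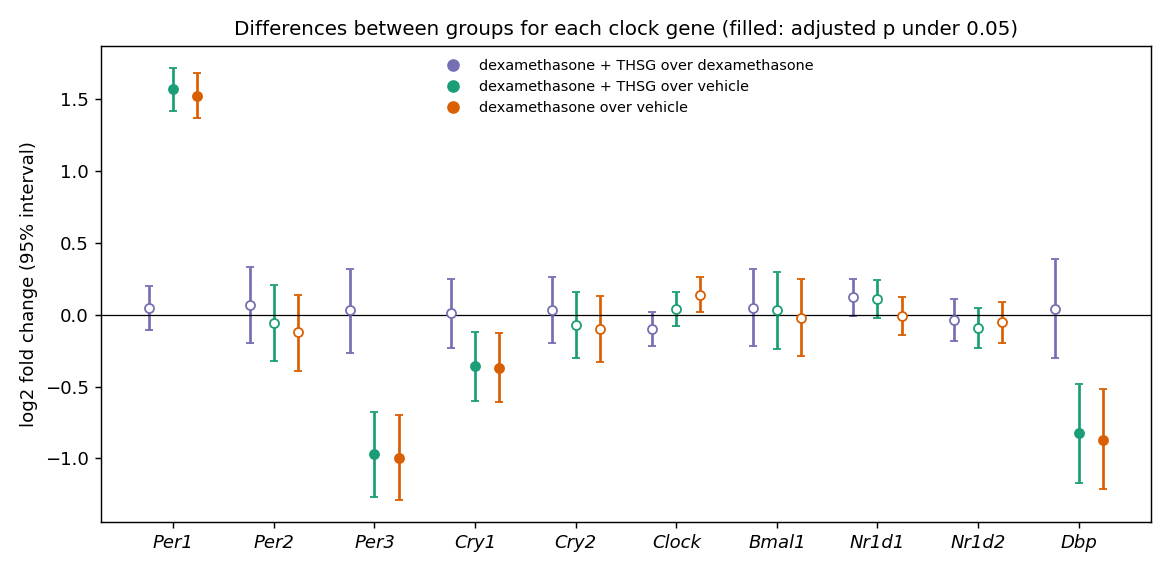
Log2 fold changes with 95% intervals are shown for the 10 clock genes, with dexamethasone plus THSG over dexamethasone on the left of each trio, dexamethasone plus THSG over vehicle in the middle and dexamethasone over vehicle on the right; filled points have an adjusted p under 0.05. Per1 stands at 1.57 and 1.52 over vehicle, Per3 and Dbp between -1.0 and -0.82, and all 10 values for THSG over dexamethasone lie between -0.10 and 0.12.

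Levels per transcript length ordered the 10 genes differently with and without the glucocorticoid. With dexamethasone plus THSG, Per1 (23.7 FPKM) and Nr1d1 (22.2) led, ahead of Clock (15.8), Nr1d2 (14.8), Bmal1 (6.77), Cry2 (5.05), Cry1 (4.71), Per2 (3.00), Dbp (2.75) and Per3 (2.62). With dexamethasone alone the order was the same, with Per1 at 23.0 and Per3 at 2.56 FPKM. With vehicle, Nr1d1 (20.6 FPKM) led, then Nr1d2 (15.7), Clock (15.3), Per1 (7.94), Bmal1 (6.60), Cry1 (6.10), Cry2 (5.33), Per3 (5.19), Dbp (4.92) and Per2 (3.12). Per1 thus held the first place with the glucocorticoid and the fourth with vehicle, while Per3 held the last place and the eighth. The ranges of Per1 and Nr1d1 overlapped in both groups with dexamethasone, as did those of Cry2 and Cry1 and those of Per2, Dbp and Per3, each with the next. With dexamethasone alone the ranges of Clock and Nr1d2 overlapped too. With vehicle the neighbours from Bmal1 down to Dbp overlapped in turn, as did Nr1d2 and Clock, so those places are not separated beyond the spread of the libraries. Measured against the whole table, Per1 stood above 71.2% of genes with dexamethasone and above 34.7% with vehicle. Per3 stood above 8.04% and 21.9%, and Dbp above 8.93% and 20.5%, so both lay near the low end of the table with dexamethasone.

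For Per1 and Per3 the genes with the most similar values over the 9 libraries were sought, by the root mean square difference of centred log2 levels among genes averaging 5 FPKM or more. Nearest to Per1 were Col4a1, a type IV collagen chain (difference 0.0475), Usp54 (0.0535) and Pld1, a phospholipase D (0.0959). Col4a1 averaged 98.7 ± 7.1 FPKM with dexamethasone and 35.3 ± 0.23 FPKM with vehicle, so it matched Per1 in fold and not in level. Nearest to Per3 were Rflnb (0.103), Vegfa, an angiogenic growth factor (0.109), and Socs3, an inhibitor of cytokine signalling (0.112). Socs3 averaged 7.51 ± 0.47 FPKM with dexamethasone and 15.3 ± 0.71 FPKM with vehicle.

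Beyond the 10 members, 73 clock-associated genes in 7 roles were looked up and 62 were listed. With dexamethasone 19 were higher, 11 lower and 32 not called against vehicle, a median log2 fold change of 0.06; the share of called genes was 48.4%, against the 33.6% of all genes. The scaling changed the split, to 23 higher of 29 called with median-ratio scaling and 22 of 28 with quantile normalization. Of all 10716 genes, median-ratio scaling called 3505, with 1739 higher, and quantile normalization called 3535, with 1784 higher. With dexamethasone plus THSG 17 were higher and 8 lower than with vehicle, or 40.3% called, against 29.1% of all genes. Without replicate 2 of the combined treatment 16 were called in all, and the calls over all genes also fell, from 3120 to 2559. Between dexamethasone plus THSG and dexamethasone alone limma called none of the 62, and 2 had an unadjusted p under 0.05, against 7.25% of all genes. Those were Timeless (log2 fold change 0.39) and Fbxw7 (-0.14), named here after their values were seen.

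Among D-box factors, Nfil3 rose while Dbp fell. Nfil3, the repressor that competes with DBP, was at 20.9 ± 1.9 FPKM with dexamethasone and 12.4 ± 1.2 FPKM with vehicle (log2 fold change 0.76, SE 0.095, adjusted p = 8.13e-05). The ratio of Nfil3 to Dbp was 9.33, 6.66 and 7.91 in the dexamethasone libraries and 2.48, 2.67 and 2.39 in the vehicle libraries. Each gene was already separate between the groups, in opposite directions, so these ratios could not overlap. Tef, an activator related to DBP, was at 35.0 ± 0.86 and 37.5 ± 2.0 FPKM and was not called (-0.10, adjusted p = 0.154). Per3, whose 2 D-boxes are printed above, fell together with Dbp; whether the factors acted there was not tested. Rora, an activator of Bmal1 and the 1 ROR gene of 3 that was listed, was at 1.72 ± 0.16 and 1.28 ± 0.19 FPKM (0.41, adjusted p = 0.0692).

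The role of paralogs and repressors of the core loop, in which Timeless and Tipin were also placed, had 5 listed genes. With dexamethasone 2 of them, Bhlhe40 and Tipin, were lower and none was higher (40% called, against 33.6% of all genes). Bhlhe40, which encodes DEC1, a repressor at E-boxes, was at 46.0 ± 2.1 FPKM with dexamethasone and 62.6 ± 4.4 FPKM with vehicle (log2 fold change -0.44, adjusted p = 0.000176). Its relative Bhlhe41 (-0.21) and the CLOCK-interacting repressor gene Cipc (0.25) did not pass. Tipin, whose product works with TIMELESS at replication forks, was at 5.2 ± 1.1 and 10.1 ± 1.1 FPKM (-0.95, adjusted p = 0.000283), beside the lower sums of dividing-cell markers given above.

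Of 15 kinase and phosphatase genes, 4 were higher and 2 lower (40% called, against 33.6% of all genes). Prkaa2, the catalytic AMPK subunit alpha 2 that marks CRY1 for removal, was at 6.69 ± 0.52 FPKM with dexamethasone and 3.98 ± 0.49 FPKM with vehicle (log2 fold change 0.74). Dyrk1a (0.30) and Csnk1e, which encodes the PER kinase CK1 epsilon (0.18), were higher, and the phosphatase gene Ppp1ca was lower (-0.17). Of 14 ubiquitin ligase and protease genes, 5 were higher and none lower, and the 35.7% called is close to the 33.6% of all genes. Usp2, a deubiquitinase of PER1 and BMAL1, was at 12.2 ± 0.36 and 7.04 ± 0.49 FPKM (0.79, adjusted p = 9.62e-06). The ligase components Cul4a and Skp1 were higher by 0.19 and 0.16. The Ppp1ca call was lost when GC content and length were corrected for (-0.04). The calls of Csnk1e and Skp1 ended without dexamethasone replicate 3 (0.14 and 0.13), and that of Skp1 also without vehicle replicate 1 or 3 (0.14 each) or without the intensity trend.

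Of 16 chromatin and RNA-binding cofactors, 4 were higher and 5 lower, or 56.2% called, against 33.6% of all genes. Tbl1xr1, a subunit of the corepressor complex used by the REV-ERB receptors, was at 14.2 ± 0.54 FPKM with dexamethasone and 9.41 ± 0.92 FPKM with vehicle (log2 fold change 0.59). Ep300, a coactivator of CLOCK and BMAL1, was higher (0.25). Ezh2 (-0.46) and the PER-associated Sfpq (-0.24) were lower. Of 9 listed output genes, 5 were higher and 2 lower, or 77.8% called, against the same 33.6%. Nampt, the rate-limiting enzyme of NAD salvage, was at 13.4 ± 0.69 and 7.56 ± 0.23 FPKM (0.81, adjusted p = 3.59e-06), and Wee1, a mitotic inhibitor kinase, at 7.69 ± 0.32 and 4.82 ± 0.61 FPKM (0.67). Pdk4, a brake on pyruvate oxidation that glucocorticoids also induce, had the largest rise of the list (3.41). Myod1, the myogenic factor, was lower (-0.20), and it too was not called with that correction (-0.04).

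**Figure D4:**
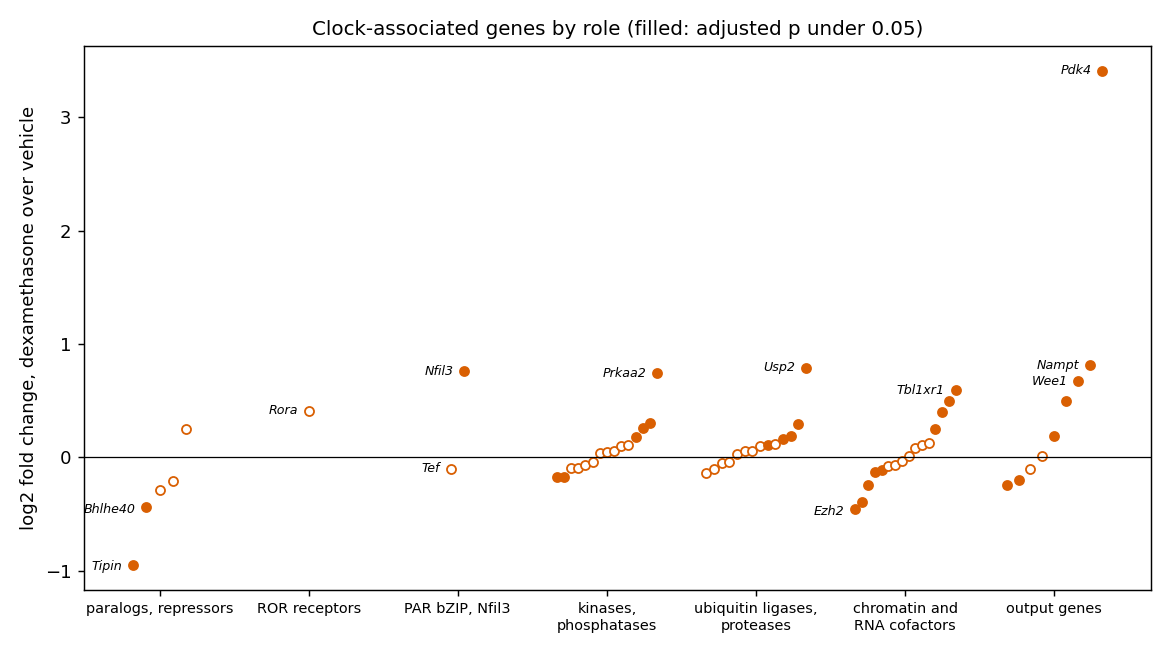
Each point is the log2 fold change of dexamethasone over vehicle for 1 of 62 clock-associated genes, grouped by role and sorted within each role; filled points have an adjusted p under 0.05. Pdk4 stands alone at 3.41, and the other 61 genes lie between -0.95 and 0.81.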

How the data were processed

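Per the labels' protocols, a Hybrid-R kit was used for RNA and a TruSeq Stranded kit for mRNA libraries. STAR 2.7.10a, the counter featureCounts and the build GRCm39 are listed in the submitters' processing notes. The deposited values were taken to be FPKM: the table is called counts, but its values are fractional, and no header or label states the unit, the strand setting or the filter that kept values above 1. Whole reads were not recovered, and depth is unknown. The cell line field runs on from C2C12 to higher numbers, and the line was taken from the titles, which all name C2C12.

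Linear models were fitted to log2(FPKM + 0.1) by limma 3.58.1 (R 4.3.3), with 1 mean per group over 9 libraries, an intensity trend, two-sided tests and Benjamini-Hochberg adjustment over 10716 genes at 0.05. A fold change on this scale slightly understates changes of low genes. The fit was tested on simulated data. Same-numbered libraries did not deviate together, so no pairing was used. The clock genes and lists were chosen with earlier results of these data known, so no list test was run. Named associated genes were the 4 per role with the smallest p for dexamethasone against vehicle. The result of 1 gene so chosen is not reported here. Overlaps, GC content and length came from GENCODE M21 (GRCm38, 10670 genes matched by Ensembl identifier), and promoters from RefSeq. Alternatives covered pseudocount, scaling, a minimum mean of 5 FPKM, the variance trend, the samples fitted, a replicate block, GC and length correction (splines with 4 degrees of freedom), and leaving out each library.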

Additional observations from a re-analysis of the deposited data

How the results depend on the processing

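Per1, Per3 and Dbp kept their calls over vehicle in every alternative that tested them. Of 1968 values of 33 named genes under 20 alternatives, 1825 kept their side of the threshold with no change of sign. Of the rest, 72 lost a call, 17 gained one, and 54, none of them called, changed sign. A rounded value of 0 counted as no change of sign. These values are not independent checks. For dexamethasone plus THSG against dexamethasone no named gene was called in any alternative. Leaving out a library of the group not compared cannot change a log2 fold change. With a minimum mean of 5 FPKM, Per2, Per3 and Dbp were not tested and 2 clock genes were called in each comparison with vehicle. Of the 8410 genes tested in that setting, 3137 were called with dexamethasone and 2703 with dexamethasone plus THSG. Leaving out 1 library gave 16 to 24 clock-associated genes called for dexamethasone plus THSG against vehicle, and 2559 to 3189 of all genes. Same-numbered libraries correlated with r from -0.0862 to 0.107 in their deviations, and 0 of 9 libraries correlated best with their own number in both other groups. With the replicate block 4 clock genes were called in each comparison with vehicle. That setting called 25 associated genes with dexamethasone and 22 with dexamethasone plus THSG, where 3518 and 3003 of all 10716 genes were called.

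Sign changes follow as log2 fold changes, and the cause was not tested. For dexamethasone against vehicle, Bmal1 was 0.03 with median-ratio scaling, 0.05 with quantile normalization, 0.02 with GC and length correction (also with the block) and between -0.10 and 0.04 without single libraries; Nr1d1 was 0.03 with median-ratio scaling, 0.01 with equal sums or quantile normalization, 0.12 with GC and length correction (also with the block) and between -0.06 and 0.03 without single libraries. For dexamethasone plus THSG against vehicle, Per2 was 0.02 with quantile normalization and Bmal1 between -0.09 and 0.13 without single libraries. For dexamethasone plus THSG against dexamethasone, GC and length correction, with or without the block, gave Per1 -0.03, Cry1 -0.02, Cry2 -0.01, Nr1d2 0.01, Dbp -0.08, Tef -0.01, Ppp1ca -0.02, Csnk1e -0.04 and Myod1 -0.05. Equal sums gave Cry1 -0.01, and quantile normalization gave Cry1 and Csnk1e -0.01. Without single libraries, ranges were Per1 -0.02 to 0.09, Per3 -0.11 to 0.12, Cry1 -0.05 to 0.08, Bmal1 -0.07 to 0.15, Nr1d2 -0.06 to 0.02, Dbp -0.05 to 0.21, Bhlhe40 -0.06 to 0.02, Bhlhe41 -0.08 to 0.05, Csnk1e -0.02 to 0.05 and Cul4a -0.06 to 0.02.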
